A study of Mus musculus with 12 samples.

Results

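The mitochondrial ribosomal protein genes were followed in the mouse auditory nerve over the first 3 weeks after birth. They were taken as all genes on the array whose single annotated symbol begins with Mrpl or Mrps and a number, which gave 76 of 18193 genes. Each gene was represented by its brightest probe set over the 12 arrays, and the 76 genes had 156 probe sets in all. The tissue came from untreated CBA/CaJ mice of both sexes at postnatal days P0, P3, P7, P10, P14 and P21, with 2 mice per stage. The paired cochleas of a mouse were pooled after the bony shell, the lateral wall and most of the sensory epithelium had been dissected away. What remained was the modiolus, the bony core in which the nerve runs, so that bone and blood-forming cells were measured with it. In such bulk tissue, fewer cells of a type and less RNA per cell cannot be told apart.

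Mitochondria make a small set of subunits of the respiratory chain and ATP synthase on their own ribosomes, which differ from those of the cytosol. The ribosomal RNAs of these mitoribosomes are encoded in mitochondrial DNA. Every mitoribosomal protein is encoded in the nucleus, made in the cytosol and imported. Some of the proteins descend from bacterial ribosomal proteins, and others are found only in mitochondria. Of the 76 genes, 49 encode large subunit proteins, 29 with a bacterial homologue and 20 particular to mitochondria. Another 26 encode small subunit proteins, 16 with a bacterial homologue and 10 particular to mitochondria. Mrps30 and Mrps18a keep small subunit symbols but encode proteins of the large subunit, and were counted there. Mrps36 encodes a subunit of the 2-oxoglutarate dehydrogenase complex and was counted in neither subunit.

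Values were log2 intensities from robust multi-array averaging (RMA), so a difference of 1 is a doubling. All 76 genes lay above the array median on each of the 12 arrays, where the array medians were between 6.70 and 6.79. These medians were taken over all probe sets, so the choice of the brightest probe set per gene favours such a place. The share over all genes was not computed. The 2 mice of a stage gave close values, with a median difference per gene of 0.07 to 0.14 log2 across stages. At P21, 2 of the 76 genes differed by over 1.5-fold between the 2 mice, against 0 at each other stage. The P21 arrays also stood apart in the signal of the 3' over the 5' control probe sets for Actb, a gauge of RNA integrity and labelling. This difference was 2.32 and 2.03 log2 at P21 and 0.81 to 1.41 on the 10 other arrays, so stage and RNA balance cannot be told apart at P21. Of 7 markers of Schwann cells and myelin, 6 were called higher at P10 than at P0, against 11% of all genes. The other, Sox10, gave -0.39 (limma adjusted p = 0.0297). In the same comparison 5 of 6 bone, 4 of 5 erythroid, 5 of 8 neutrophil and marrow and all 7 macrophage markers were called higher. Of 8 cartilage markers, 3 were called higher and 1 lower. Of the hair cell markers 3 of 6 were called lower, and of the skeletal muscle markers 2 of 9. Of 12 neuron markers, 4 were called higher and 3 lower, against 13.5% of all genes lower. All 14 markers of dividing cells were called lower at P21 than at P0, against 16.9% of all genes. The part of these cell types in the levels of the 76 genes was not tested.

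Over the 6 stages, the mitoribosomal genes moved little. A gene was called when the adjusted p of limma's F-test over all stages was under 0.05 and its highest stage mean was over 1.5 times its lowest. This held for 24 of the 76 genes, or 31.6%, against 45.1% of all genes. The median range of stage means was 0.46 log2 for the mitoribosomal genes and 0.57 log2 for all genes. The range stayed under 1.5-fold in 51 of the 76 genes (67.1%) and in 50.8% of all genes. When each gene was given as the average over its probe sets, 12 genes (15.8%) were called, against 40% of all genes, and without the P21 arrays 15 were called (19.7%), against 37.5% of all genes.

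The most frequent pattern in the group was a maximum at P3. Stage means were highest at P3 in 47 of the 76 genes (61.8%), against 24.6% of all genes, and lowest at P3 in 0 of the 76, against 16.3% of all genes. In 57 genes the P3 mean was above the P0 mean and the P7 mean below the P3 mean, a count not made over all genes. The lowest stage was P21 in 29 genes (38.2%, against 21.4% of all genes), P0 in 22 (28.9%, against 23.8%) and P14 in 15 (19.7%, against 14.6%). Of the 24 called genes, 17 were highest at P3, 5 at P0 and 2 at P21. The largest set of called genes, 11, was highest at P3 and lowest at P21, and held Mrpl50, Mrps35, Mrpl17, Mrps30, Mrpl11, Mrps17, Mrps25, Mrpl35, Mrps16, Mrps23 and Mrps7. In another 5, Mrpl52, Mrpl3, Mrpl33, Mrpl48 and Mrpl23, the high point was P3 and the low point P14. Mrpl45, Mrpl21 and Mrpl9 had their high point at P0 and their low point at P21, and Mrps2 and Mrps27 ran between P0 and P10. Mrps6 and Mrpl44 were lowest at P0 and highest at P21.

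**Figure D1:**
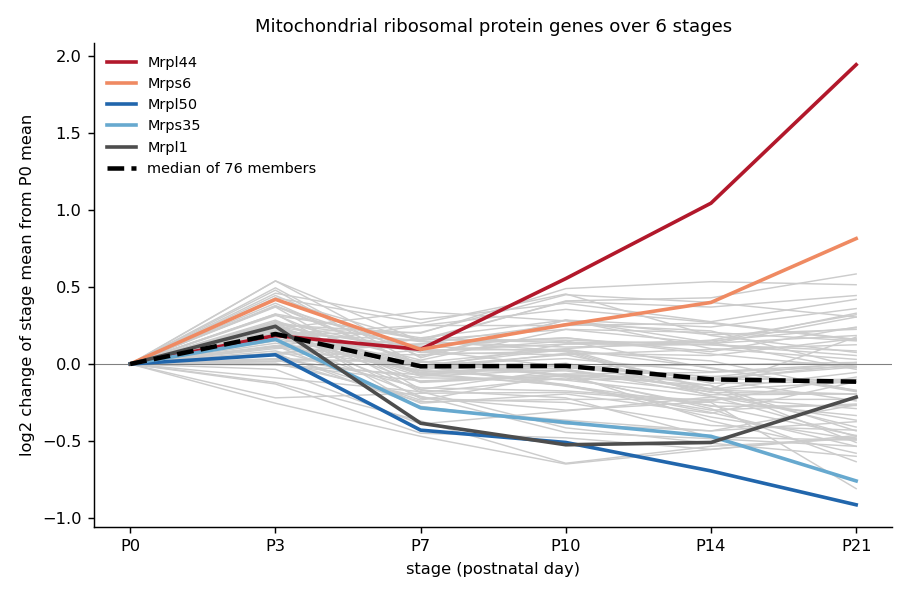
Log2 change of the stage mean from the P0 mean (vertical axis) at each stage (horizontal axis) for the 76 mitochondrial ribosomal protein genes, with 5 of them in colour, the rest as grey lines and the median dashed. The median stood at 0.195 at P3 and at -0.115 at P21, while Mrpl44 reached 1.945 and Mrpl50 -0.915 at P21.

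The first step, P3 against P0, addressed whether the group changed in the 3 days after birth. The median of the 76 genes was 0.195 log2 higher at P3 than at P0, with 68 of them positive. Over all genes the median was 0.04, with 55.8% positive. The 80 other probe sets of the 76 genes gave a median of 0.095, with 56 positive and 24 negative, and 55.5% of all probe sets were positive. The per-array medians, relative to the P0 mean of each gene, were 0.19 and 0.21 at P3, and -0.02 and 0.02 at P0. The 2 P3 arrays differed in the markers of dividing cells, with medians of -1.475 and -0.1975 relative to P0. The part of this in the 76 genes was not tested. Both P3 arrays were above both P0 arrays in 55 of the 76 genes (72.4%), against 31.6% of all genes. Each change was small. No gene passed both an adjusted p under 0.05 and a 1.5-fold limit in limma (0 higher, 0 lower), against 1.61% of all genes higher and 3.78% lower. At an unadjusted p under 0.05, 29 genes were higher (12.4% of all genes) and 1 lower (14.1% of all genes), and the methods' t-test, with or without adjustment, called 0.

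With no fold limit, 4 genes were higher at P3 than at P0 at an adjusted p under 0.05 (2.42% of all genes) and 0 lower (5.29% of all genes). Mrpl48, a mitochondria-specific large subunit protein, had 10.34 and 10.39 at P3, against 9.86 and 9.91 at P0, a change of 0.48 ± 0.10 (SE, limma adjusted p = 0.022). Mrps16, a small subunit protein with a bacterial homologue, had 11.77 and 11.81 at P3, against 11.31 and 11.43 at P0, a change of 0.42 ± 0.09 (SE, limma adjusted p = 0.0317). In both genes, and in Mrpl20 and Mrps6, the P3 arrays lay clear of the P0 arrays, as picking genes by their p favours. Mrpl20, whose bacterial homologue acts early in large subunit assembly, had 10.98 and 11.07 at P3, against 10.58 and 10.55 at P0 (limma adjusted p = 0.0406). Mrps6 had 11.52 and 11.40 at P3, against 11.05 and 11.03 at P0 (limma adjusted p = 0.0483). All 4 of these calls depended on every array of the pair of stages, since leaving out any 1 of the 4 arrays left 0, and the count was 1 without either P7 array, 2 without either P10 array and 10 without either P21 array.

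From P3 to P7 the group moved the other way. The median of the 76 genes was -0.24 log2 for P7 minus P3, with 10 of them positive and 64 negative. Over all genes the median was -0.05, with 42.9% positive. Both P7 arrays were below both P3 arrays in 55 of the 76 genes (72.4%), against 36.5% of all genes. Since both steps use the P3 arrays, the step up and the step down are not independent of each other. The per-array medians, relative to P0, were -0.04 and -0.02 at P7, against 0.19 and 0.21 at P3. By role, the median P7 minus P3 difference was -0.22 in both classes of large subunit protein, -0.31 in the small subunit proteins with a bacterial homologue and -0.22 in the small subunit proteins particular to mitochondria. The 80 other probe sets of these genes were 55 negative and 25 positive, with a median of -0.10, and 43% of all probe sets were positive.

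Mrpl1 was the only one of the 76 called at this step with the fold limit (5.36% of all genes lower), and 0 were higher (7.81% of all genes). It encodes the protein of the L1 stalk, which in bacteria helps move the spent tRNA out of the ribosome. Mrpl1 had 8.88 and 8.87 at P7, against 9.50 and 9.51 at P3, and fell by 0.63 ± 0.11 (SE, limma adjusted p = 0.00531). Its other probe sets gave -0.45 and -0.045, and with the mean of its probe sets the difference was under 1.5-fold. At an unadjusted p under 0.05, 35 genes were lower, against 19% of all genes, and 0 higher, against 17.4% of all genes.

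With no fold limit, 17 of the 76 genes (22.4%) were lower at P7 than at P3 at an adjusted p under 0.05, against 9.61% of all genes, and 0 were higher, against 11% of all genes. Mrpl52, a mitochondria-specific large subunit protein, had 11.32 and 11.43 at P7, against 11.93 and 11.95 at P3, and fell by 0.565 ± 0.12 (SE, limma adjusted p = 0.0114). Mrpl3, whose bacterial homologue reaches towards the site of peptide bond formation, had 10.63 and 10.66 at P7, against 11.02 and 11.06 at P3 (limma adjusted p = 0.0254). Mrpl11, at the base of the stalk that recruits translation factors in bacteria, had 10.69 and 10.71 at P7, against 11.18 and 11.19 at P3 (limma adjusted p = 0.0162). In these 3 genes, and in Mrps18c, the 2 stages did not overlap, as picking genes by their p favours. Mrps18c, 1 of 3 mammalian versions of bacterial S18, had 11.13 and 11.07 at P7, against 11.61 and 11.66 at P3 (limma adjusted p = 0.0303). The count of 17 was not stable: it was 6 without P3 replicate 1, 4 without P3 replicate 2, 1 without P7 replicate 1, 5 without P7 replicate 2 and 6 from the 4 arrays alone. With the Actb balance as a covariate it was 1.

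**Figure D2:**
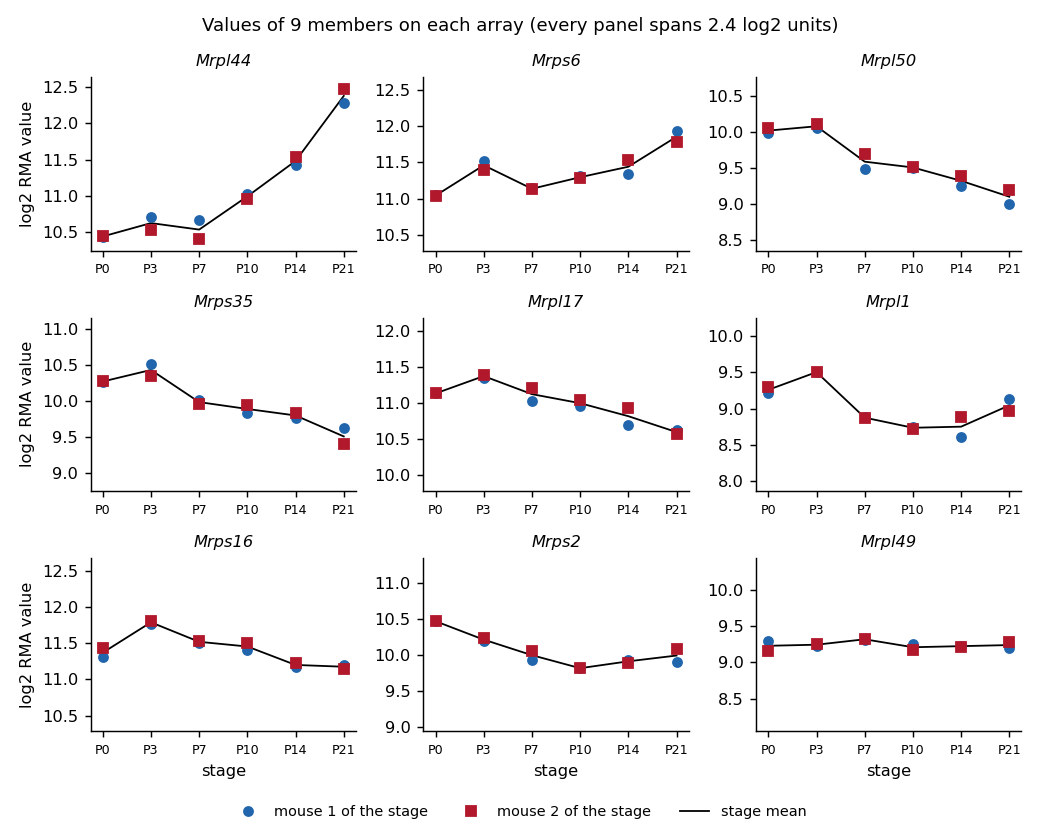
Log2 RMA value (vertical axis) on each array at each stage (horizontal axis) for 9 genes, with a circle and a square for the 2 mice of a stage and a line through the stage means. Mrpl44 was highest at P21 with 12.28 and 12.48, Mrps16 was highest at P3 with 11.77 and 11.81, and Mrpl49 stayed between 9.16 and 9.33 on all 12 arrays.

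The next steps were small. For P10 minus P7 the median was 0.02 log2, and limma called 0 genes higher (0.176% of all genes) and 0 lower (0.209% of all genes), with 4 higher (5.82% of all genes) and 2 lower (8.61% of all genes) at an unadjusted p under 0.05. For P14 minus P10, the days around the onset of hearing, the median was -0.075, with 17 of 76 genes positive and 57 negative. Over all genes 49.2% were positive. Limma called 0 genes higher (0% of all genes) or lower (0% of all genes). At an unadjusted p under 0.05, 1 was higher (5.2% of all genes) and 5 lower (4.14% of all genes). The methods' t-test called 0 at both steps. The P14 arrays differed from each other, with medians relative to P0 of -0.15 and -0.05, and the markers of dividing cells differed between them too, with medians of -0.44 and -2.07 relative to P0. Without P14 replicate 1 the median for P14 minus P10 was -0.0175. For P21 minus P14 the median was -0.005, and Mrpl44 was the only gene called higher (0.956% of all genes), with 0 lower (1.12% of all genes). At an unadjusted p under 0.05, 5 were higher (12.6% of all genes) and 7 lower (8.71% of all genes), and the methods' t-test called 0 lower.

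The comparison of P10 with P0 addressed the change from birth to the last stage before hearing. The median of the 76 genes was -0.01 log2, with 36 positive and 40 negative, where 45.2% of all genes were positive. Limma called 0 genes higher, against 11% of all genes, and 2 lower, against 13.5% of all genes. At an unadjusted p under 0.05, 13 were higher (20.2% of all genes) and 14 lower (27% of all genes), and the methods' t-test called 0 higher and 1 lower. Mrps2, a small subunit protein with a bacterial homologue, had 9.82 and 9.82 at P10, against 10.47 and 10.47 at P0, and fell by 0.65 ± 0.10 (SE, limma adjusted p = 0.000809). Mrps27, a mitochondria-specific protein with pentatricopeptide repeats, had 6.83 and 7.04 at P10, against 7.71 and 7.45 at P0, and fell by 0.645 ± 0.12 (SE, limma adjusted p = 0.00263). The stages did not overlap in either gene, which is no separate support since both were picked by their calls. In both genes the mean was lower at each stage after P0 than at P0. Mrps27 fell short of the fold limit without P0 replicate 1 (-0.515) or P10 replicate 1 (-0.54), and a dimmer probe set of Mrps2 gave 0.08.

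With no fold limit, 8 genes were higher at P10 than at P0 (16.1% of all genes) and 9 lower (21.5% of all genes). The 8 became 2 to 4 without any 1 of the 4 arrays, and the 9 became 4 or 5 without either P0 array or P10 replicate 1. Among the higher was Mrps36, the dehydrogenase subunit, with 10.58 and 10.56 at P10, against 10.05 and 10.11 at P0 (limma adjusted p = 0.00511). It kept a similar level at P21, with 10.55 and 10.64 (limma adjusted p = 0.00256 against P0). Mrpl36, whose bacterial homologue is among the smallest ribosomal proteins, had 10.17 and 10.16 at P10, against 9.84 and 9.92 at P0 (limma adjusted p = 0.0434). Mrpl36 was back at 9.97 and 9.85 at P21.

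At P21 against P0, the whole span measured, the group was spread on both sides of no change. The median of the 76 genes was -0.115 log2, with 27 positive and 49 negative, and the values ran between -0.915 and 1.945. Over all genes 52.8% were positive. Limma called 3 genes higher, against 15.3% of all genes, and 5 lower, against 16.9% of all genes. With no fold limit 9 were higher, against 23.3% of all genes, and 21 lower (27.6%), against 24.7% of all genes. The 9 became 5, 4 and 4 without P0 replicate 1, P0 replicate 2 and P21 replicate 1. With the Actb balance as a covariate, 1 gene was called higher and 0 lower. That fit cannot separate RNA balance from stage at P21, where the balance lay outside its range on the other arrays. The large subunit held 2 of the genes called higher and 4 of those called lower.

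**Figure D3:**
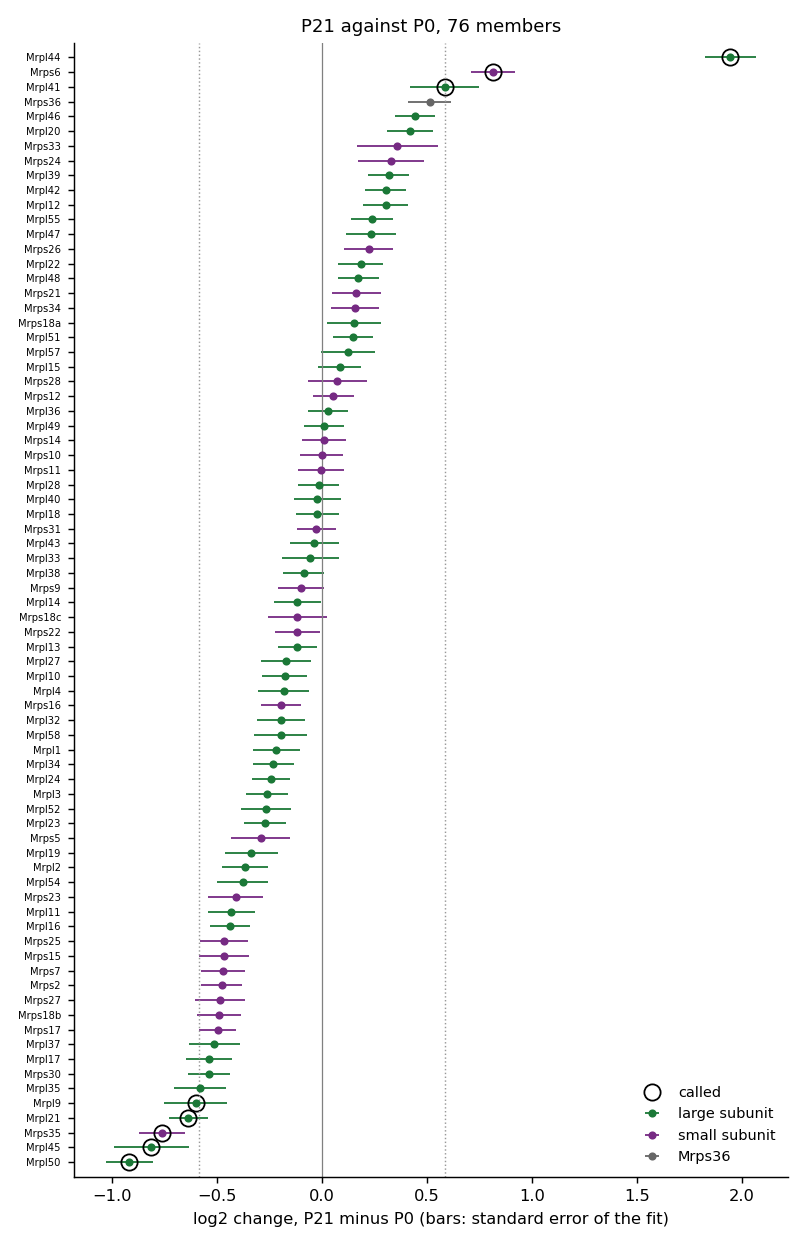
Log2 difference P21 minus P0 (horizontal axis) with its standard error from the fit for each of the 76 genes (vertical axis, in order of the difference), coloured by ribosomal subunit, with the called genes circled and dotted lines at 1.5-fold. The differences ran between -0.915 for Mrpl50 and 1.945 for Mrpl44, and 8 genes were called.

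Of the genes called lower, Mrpl50, a mitochondria-specific large subunit protein, had 9.01 and 9.20 at P21, against 9.98 and 10.06 at P0, and fell by 0.915 ± 0.11 (SE, limma adjusted p = 0.000126). Its values declined step by step after P3, with 9.49 and 9.69 at P7, 9.50 and 9.52 at P10, and 9.26 and 9.39 at P14. A second probe set of Mrpl50 fell by 0.645 (limma adjusted p = 0.00236). The P21 arrays lay below every array of P0 to P14 in the brighter probe set. Mrps35, a mitochondria-specific small subunit protein, had 9.62 and 9.40 at P21, against 10.26 and 10.28 at P0, and fell by 0.76 ± 0.11 (SE, limma adjusted p = 0.000349). In Mrps35, too, both P21 arrays were below all arrays of the earlier stages.

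Mrpl9, a large subunit protein with a bacterial homologue, had 9.40 and 9.58 at P21, against 10.00 and 10.18 at P0, and fell by 0.60 ± 0.15 (SE, limma adjusted p = 0.00851). Its other probe sets fell by 0.90 and 1.22, so all 3 were called lower, although the brightest was not called without P0 replicate 2 or P21 replicate 1. Mrpl21, also with a bacterial homologue, had 8.74 and 8.90 at P21, against 9.45 and 9.46 at P0, and fell by 0.635 ± 0.09 (SE, limma adjusted p = 0.000419). The change in Mrpl21 came late, since the P10 arrays were still at 9.41 and 9.34, and its 2 dimmer probe sets gave 0.16 and 0.12. Without P21 replicate 1 the difference of Mrpl21 was -0.555 and under the fold limit. Mrpl45, which holds the mitoribosome to the inner membrane, had 8.86 and 9.49 at P21, against 10.02 and 9.95 at P0, and fell by 0.81 ± 0.18 (SE, limma adjusted p = 0.00451). The P21 arrays of Mrpl45 were 0.63 apart, and without P21 replicate 1 the difference was -0.495. With the Actb balance as a covariate, which cannot be separated from stage at P21, it turned to 0.47.

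Of the genes called higher, Mrps6, a small subunit protein with a bacterial homologue, had 11.93 and 11.78 at P21, against 11.05 and 11.03 at P0, and rose by 0.815 ± 0.11 (SE, limma adjusted p = 0.000185). It had 2 high points, P3 and P21, with 11.14 and 11.13 at P7 between them. A second probe set of Mrps6 gave 0.475. Mrps6 overlaps Slc5a3, a myo-inositol transporter gene, in the RefSeq annotation of GRCm38.p6, and Slc5a3 had 12.72 and 12.64 at P21, against 11.63 and 11.49 at P0. Whether the Mrps6 probe sets read transcripts of both genes was not tested. Mrpl41, a mitochondria-specific large subunit protein, had 12.27 and 11.83 at P21, against 11.43 and 11.50 at P0, and rose by 0.585 ± 0.16 (SE, limma adjusted p = 0.0163). Mrpl41 sat at the fold limit and its call was lost without P0 replicate 1 (0.55), P0 replicate 2 (0.62) or P21 replicate 1 (0.365), and with the Actb balance as a covariate its difference turned to -0.25.

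Mrpl44, a mitochondria-specific large subunit protein with a ribonuclease III-like fold, had the widest range of the group, 1.945 log2. Its brightest probe set had 10.43 and 10.44 at P0, 10.71 and 10.53 at P3, 10.66 and 10.40 at P7, 11.02 and 10.96 at P10, 11.43 and 11.53 at P14, and 12.28 and 12.48 at P21. The values climbed from P10 onwards without overlap between neighbouring stages. The P21 minus P0 difference was 1.945 ± 0.12 (SE, limma adjusted p = 2.61e-06), a 3.85-fold rise, and P21 minus P14 was 0.90 (limma adjusted p = 0.0104). Without P14 replicate 1 the P21 minus P14 difference was 0.85 with an adjusted p of 0.113.

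The 4 probe sets annotated to Mrpl44 did not give one direction. At P21 minus P0 the probe set 1452144_a_at, which stood for the gene, gave 1.945, 1437391_x_at gave 0.055 (limma adjusted p = 0.77), 1426651_at gave -0.49 (limma adjusted p = 0.0227) and 1430990_s_at gave -1.38 (limma adjusted p = 5.79e-05). The probe set 1430990_s_at had 6.25 and 6.45 at P21, against 7.74 and 7.72 at P0. Wdfy1, which overlaps Mrpl44 in the RefSeq annotation, had 10.81 and 11.03 at P21, against 10.96 and 10.94 at P0. The direction for the gene as a whole is therefore uncertain, and the mean of the 4 probe sets gave 0.03 (limma adjusted p = 0.838). Mrpl3 also had probe sets called in opposite directions at P21 against P0, with -0.725 for 1422463_a_at and 1.06 for 1440636_at, while its brightest, 1422464_at, gave -0.26. Mrpl35 gave -0.58 in its brightest probe set, 1419363_a_at (limma adjusted p = 0.00363), and 1.805 in 1440989_at (limma adjusted p = 1.37e-06), which had 8.34 and 8.31 at P21, against 6.53 and 6.51 at P0, so its direction is uncertain as well.

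**Figure D4:**
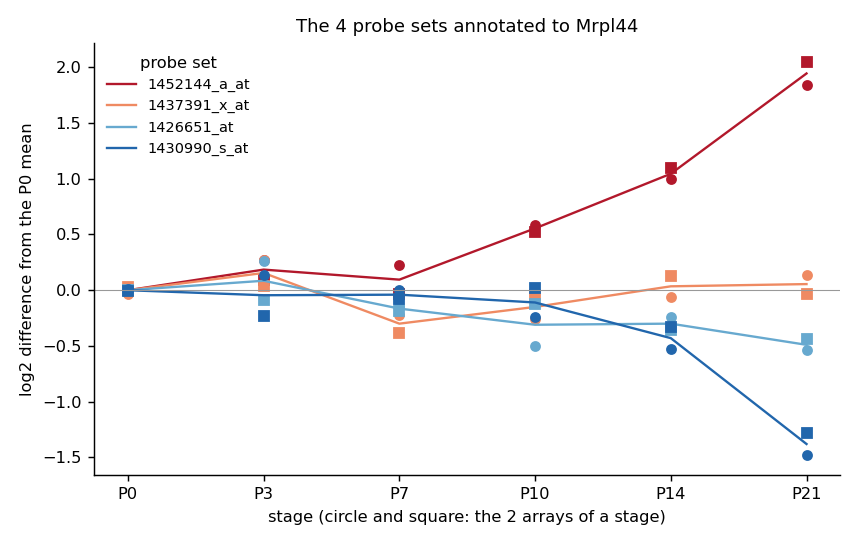
Log2 difference from the P0 mean (vertical axis) at each stage (horizontal axis) for the 4 probe sets annotated to Mrpl44, with a circle and a square for the 2 arrays of a stage and lines through the stage means. At P21 the probe sets stood at 1.945, 0.055, -0.49 and -1.38, so the named gene has no single direction.

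Within the role groups, the widest and narrowest ranges of stage means lay side by side. Among large subunit proteins with a bacterial homologue, Mrpl17, near the exit of the peptide tunnel, had the widest range (0.775 log2) and Mrpl22 the narrowest (0.225). Mrpl17 had 10.62 and 10.57 at P21, against 11.13 and 11.13 at P0, with its highest values, 11.35 and 11.39, at P3 (F-test adjusted p = 0.0027, limma). Among the mitochondria-specific large subunit proteins, Mrpl44 was the widest and Mrpl49 the narrowest, with a range of 0.11. In the small subunit the widest were Mrps6 (0.815) and Mrps35 (0.92), and the narrowest were Mrps9 (0.13) and Mrps31 (0.195). The median ranges of the 4 role groups were 0.46, 0.45, 0.50 and 0.47 log2 in the same order, and they held 9, 6, 5 and 4 of the called genes.

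Several genes with a point of nomenclature were examined by name. Mrps30, counted in the large subunit, had 9.74 and 9.72 at P21, against 10.29 and 10.24 at P0, and fell by 0.535 (limma adjusted p = 0.00176). The 3 mammalian versions of S18 differed in their values. Mrps18b had 8.40 and 8.60 at P21, against 8.97 and 9.01 at P0, and fell by 0.49 (limma adjusted p = 0.00401), while Mrps18a gave 0.155 (limma adjusted p = 0.369) and Mrps18c -0.115 (limma adjusted p = 0.554). Differences between these 3 genes were not tested. Mrpl12, which forms the stalk that recruits translation factors, had 11.45 and 11.23 at P21, against 11.05 and 11.02 at P0 (limma adjusted p = 0.0444).

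The products of mitoribosomes are partners of nuclear-encoded subunits in the respiratory chain, and the cytosol has its own ribosomes, so both lists were set beside the 76 genes. At P3 the median difference from P0 was 0.20 for 82 oxidative phosphorylation genes and 0.195 for the mitoribosomal genes, against 0.025 for 48 cytosolic ribosomal protein genes. At P7 minus P3 the medians were 0.025 for oxidative phosphorylation, -0.24 for the mitoribosomal genes and -0.235 for the cytosolic ribosomal proteins. At P21 minus P0 the lists were apart, at 0.42 for oxidative phosphorylation (22 of 82 called higher, 0 lower), -0.115 for the mitoribosomal genes (3 higher, 5 lower of 76) and -0.435 for the cytosolic ribosomal proteins (1 higher, 18 lower of 48). Over all genes 15.3% were called higher and 16.9% lower in that comparison. The median of the mitoribosomal list lay between those of the other lists at P21. Differences between the lists were not tested.

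**Figure D5:**
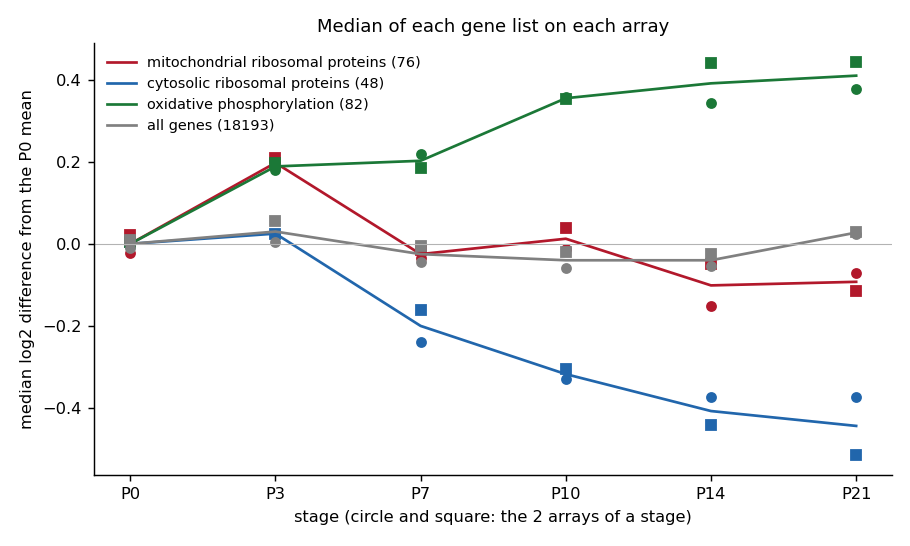
Median log2 difference from the P0 mean (vertical axis) on each array at each stage (horizontal axis) for 4 gene lists, with a circle and a square for the 2 arrays of a stage and lines through their means. The mitochondrial ribosomal protein genes stood at 0.185 and 0.21 at P3 and at -0.07 and -0.115 at P21, where oxidative phosphorylation stood at 0.3775 and 0.4425 and cytosolic ribosomal proteins at -0.3725 and -0.515.

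The other genes of mitochondrial translation gave few calls with the fold limit. Of 22 symbols listed for mitoribosome assembly and ribosomal RNA modification, 17 matched an annotated symbol on the array. A symbol without a match does not show that its gene was not measured. At P21 against P0, 2 of these were called higher and 1 lower (15.3% and 16.9% of all genes). With no fold limit, 5 were higher and 4 lower (23.3% and 24.7% of all genes). Fastkd2, needed for the large subunit ribosomal RNA, had 9.48 and 9.64 at P21, against 8.91 and 8.84 at P0 (0.685, limma adjusted p = 0.00491), and Ddx28, a helicase of large subunit assembly, fell by 0.875 (limma adjusted p = 0.004). In 10 mitochondrial translation factors, 10 genes of mitochondrial DNA transcription and mRNA stability, and 4 mitoribosomal genes without an Mrp symbol, 0 genes passed the adjusted p and the 1.5-fold limit together at P21 against P0. With no fold limit, beside 23.3% and 24.7% of all genes, 0 translation factors were higher and 2 lower. In the same setting 1 transcription gene was higher and 3 lower, and the 4 genes without an Mrp symbol gave 0. Of 16 mitochondrial aminoacyl-tRNA synthetases, which charge tRNAs for mitoribosomes, 2 were called lower and 0 higher with the fold limit, and 6 were lower and 2 higher without it. The 2 called were Wars2, with 6.55 and 6.42 at P21, against 7.92 and 7.51 at P0 (-1.23, limma adjusted p = 0.00038), and Ears2 (-1.06, limma adjusted p = 0.000383).

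Of 10 regulators of mitochondrial gene expression, 3 were called higher and 4 lower at P21 against P0 (15.3% and 16.9% of all genes). With no fold limit, 3 were higher and 6 lower (23.3% and 24.7% of all genes). Ppargc1a, the coactivator PGC-1 alpha, had 11.33 and 11.66 at P21, against 9.62 and 9.59 at P0 (1.89, limma adjusted p = 8.95e-06), and Esrra, a nuclear receptor that works with it, rose by 1.595 (limma adjusted p = 5.51e-05). Mycn and Myc, transcription factors that drive ribosome production and growth, gave -1.82 and -1.71 (limma adjusted p = 5.83e-06 and 3.93e-05). Gabpb1, the beta subunit of the transcription factor GABP, had 6.65 and 7.03 at P21, against 8.07 and 7.95 at P0 (-1.17, limma adjusted p = 0.000127). Smaller differences were seen in Gabpa (-0.525, limma adjusted p = 0.00233), Yy1 (-0.535, limma adjusted p = 0.00272) and Nrf1 (0.165, limma adjusted p = 0.323). Both P21 arrays were clear of both P0 arrays in Ppargc1a, Wars2 and Gabpb1, which is no separate support since they were picked by their calls.

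Promoters were examined because nuclear genes of mitochondrial translation are known targets of NRF1, GABP and YY1, and short core motifs of these factors were searched on both strands. RefSeq windows of 300 bases, 250 before and 50 after the annotated start on GRCm38.p6, were found for 67 of the 76 genes. The GABP core CCGGAAG was in a window of 25 of the 67 genes (37.3%), against 15% of 14369 genes on the array and 9.93% of all 27025 genes with a window. The NRF1 core GCGCATGCG was in 7 genes (10.4%), against 3.1% of genes on the array, and the YY1 core AAGATGGCG in 8 genes (11.9%), against 2.54%. At least 1 of the 3 motifs was in 35 of the 67 genes (52.2%), against 19.3% of genes on the array. The 3 genes called higher at P21 had no exact match to the motifs. The 4 genes called lower with a window had NRF1 in 1 and GABP in 1. The 60 other genes had NRF1 in 6, GABP in 24 and YY1 in 8. A match describes the letters and is not a shown binding site. Forms that differ from a core by 1 base were not counted, so the lack of a match does not show that a site is absent.

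Promoter windows of 4 genes are printed with the motif matches in capitals. Mrpl9, called lower at P21, holds 2 overlapping NRF1 matches, 1 on each strand. Mrpl17, with the widest range among its role group, holds GABP and NRF1 matches, and Mrps27, called lower at P10, holds GABP (reverse strand) and YY1 matches. Mrpl44, with the largest rise in its brightest probe set, holds no exact match to the 3 cores. Its window does hold gcgcacgcg, which differs from the NRF1 core by 1 base and was not counted. The same letters stand in the windows of Mrpl17 and of Mrpl45, called lower at P21, so they are not particular to Mrpl44.
Mrpl9 chr3:94443086-94443385, plus strand: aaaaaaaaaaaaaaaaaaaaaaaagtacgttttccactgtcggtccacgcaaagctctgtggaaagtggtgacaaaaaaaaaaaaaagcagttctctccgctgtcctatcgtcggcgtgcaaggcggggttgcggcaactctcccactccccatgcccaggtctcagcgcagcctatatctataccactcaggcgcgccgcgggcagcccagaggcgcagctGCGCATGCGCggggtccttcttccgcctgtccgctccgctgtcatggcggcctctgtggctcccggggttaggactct
Mrpl17 chr7:105811038-105811337, minus strand: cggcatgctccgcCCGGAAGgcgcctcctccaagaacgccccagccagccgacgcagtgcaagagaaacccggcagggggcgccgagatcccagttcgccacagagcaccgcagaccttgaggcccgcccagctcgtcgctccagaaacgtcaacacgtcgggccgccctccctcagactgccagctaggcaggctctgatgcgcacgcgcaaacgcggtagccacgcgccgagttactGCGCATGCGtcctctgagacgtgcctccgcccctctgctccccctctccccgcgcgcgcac
Mrps27 chr13:99344536-99344835, plus strand: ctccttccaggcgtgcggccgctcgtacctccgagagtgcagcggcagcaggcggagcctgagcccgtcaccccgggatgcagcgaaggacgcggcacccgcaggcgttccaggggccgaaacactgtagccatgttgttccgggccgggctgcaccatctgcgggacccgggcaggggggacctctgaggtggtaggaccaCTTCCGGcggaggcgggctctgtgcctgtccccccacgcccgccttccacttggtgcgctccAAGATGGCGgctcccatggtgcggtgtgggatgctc
Mrpl44 chr1:79775768-79776067, plus strand: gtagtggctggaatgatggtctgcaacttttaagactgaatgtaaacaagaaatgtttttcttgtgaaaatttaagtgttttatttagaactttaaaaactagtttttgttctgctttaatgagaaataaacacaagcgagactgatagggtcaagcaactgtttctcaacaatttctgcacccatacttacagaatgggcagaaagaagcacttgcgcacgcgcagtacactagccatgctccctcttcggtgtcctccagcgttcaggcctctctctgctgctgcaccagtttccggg
The matches in Mrpl9 and Mrpl17 for NRF1 lie just before the start, and the YY1 match in Mrps27 lies just after it.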

How the data were processed

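Total RNA of 12 mice, 2 per stage, was hybridised to Affymetrix mouse 3' expression arrays. Expression Console, run by the authors, gave RMA and MAS5 values (version not given in the sources used here). The deposited values are log2 intensities, background corrected and quantile normalized, as near-equal quartiles on the 12 arrays show for RMA. Normalization of this kind can hide a shift shared by most genes. No read depth exists, and the number of arrays limits precision. The table held 0 columns of other samples.

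Without 64 controls, 45037 of the 45101 probe sets were tested with limma 3.58.1 in R 4.3.3 on all 12 arrays in 6 groups (6 residual and 4.03 prior degrees of freedom). Benjamini-Hochberg adjustment covered all 45037. Calls needed an adjusted p under 0.05 and a fold over 1.5. Only the 34945 probe sets with 1 symbol were used for genes, and 4 probe sets shared with another gene were not. The genes and lists were chosen with earlier results of these data known. Genes named were the 16 called with the widest range, up to 6 called per direction and comparison, the extremes of each role group, genes with a point of nomenclature or discordant probe sets, and up to 4 called per list. Others named for their change at P3 or P7 without the fold limit, or for a motif, were chosen after their values were seen. Promoters came from RefSeq (GRCm38.p6). Scripts were tested on simulated data.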

Additional observations from a re-analysis of the deposited data

How the results depend on the processing

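The values of the 76 genes were recomputed with other settings, of which the Actb balance covariate, the fit without P21 and the counts with no fold limit were chosen after seeing the data. Intensity trend, array weights and leaving out dimmer probe sets changed no count by over 1.5 times. The labels do not say whether mice of the same replicate number were handled together. Of 15 correlations of same-numbered deviations between stages, 6 were over 0.1 (range -0.1247 to 0.317). The median of all genes relative to P0 was higher in replicate 2 than in replicate 1 at each stage, as with 0.055 against 0.005 at P3. A shared effect of the replicate number was not tested beyond the block below. With the replicate number as a block, 23 genes were called over the 6 stages and 2 were higher of any fold at P3 against P0, and each pairwise count with the fold limit was as without the block. With arrays shifted to one median, 2 genes were lower at P7 against P3 and the P10 minus P0 median was -0.0725. With each gene averaged over its probe sets, 0 were lower at P7 against P3 (median -0.165), 0 higher at P21 against P14, 1 lower at P10 against P0, 1 higher at P21 against P0 (median -0.0392) and 12 called over the stages, and Mrpl44 reversed to -0.055 for P21 minus P14. The 4 arrays alone gave 0 higher at P21 against P14. The methods' t-test called 1 gene lower at P10 against P0 with or without adjustment. After adjustment it called 0 lower at P7 against P3, 0 higher at P21 against P14, and 0 higher and 0 lower at P21 against P0. With the Actb balance as a covariate, 0 were lower at P7 against P3 (median -0.1892), 0 higher at P21 against P14 (median -0.2124), and 1 higher and 0 lower at P21 against P0 (median -0.2896), with -0.1286 as the P14 minus P10 median. In that fit Mrpl41 reversed to -0.2511 and Mrpl45 to 0.4736, but the fit cannot separate RNA balance from stage at P21. Without the P21 arrays 15 were called over the stages. The cause of these changes was not tested.

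Leaving out 1 array at a time gave 1 to 3 lower at P7 against P3 (medians -0.2625 to -0.22), 0 to 1 higher and 0 to 1 lower at P21 against P14 (medians -0.0575 to 0.0475), 0 to 1 higher and 1 to 2 lower at P10 against P0 (medians -0.0125 to 0.0375), 2 to 4 higher and 3 to 6 lower at P21 against P0 (medians -0.115 to -0.07) and 20 to 26 called over the stages. The medians were 0.175 to 0.21 at P3 against P0, -0.005 to 0.05 at P10 against P7 and -0.1175 to -0.0175 at P14 against P10. When an array was left out, the lone array of its stage was assumed to vary like the others.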
